A study of Mus musculus with 10 samples.

Results

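Nuclear long noncoding RNAs are transcripts without a protein product that stay in the nucleus, and 8 of them, Malat1, Neat1, Meg3, Kcnq1ot1, Rian, Mirg, Airn and Snhg11, were followed here in mouse lung. They were chosen by gene symbol, and all 8 had a row among the 24059 symbols of the count table. Malat1 was chosen on measured values, namely its wide spread between samples, so that spread is described below and is not weighed against chance. Lung RNA of 10 mice was sequenced, with 1 mouse per sample and 5 mice per diet. All were female C57Bl/6 mice, 6 weeks old at the start and 14 weeks old at sampling, kept for 8 weeks on a high fat diet rich either in menhaden fish oil (FO group) or in saturated fat from coconut oil, with olive and corn oil (CO group). The tissue was whole lung flushed with PBS, a mixture of cell types. In such bulk samples fewer cells of a type and less RNA per cell cannot be told apart.

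Malat1 is an abundant RNA of nuclear speckles, the bodies that hold splicing factors, and Neat1 is the scaffold on which paraspeckles are built. Both genes are neighbours. The end of Malat1 and of the long form of Neat1 is cut by an enzyme that processes transfer RNAs. A triple helix in place of a poly(A) tail then protects the new end. Meg3, Rian and Mirg are made from the maternal copy of the imprinted Dlk1-Dio3 region and carry microRNAs and small nucleolar RNAs, while Kcnq1ot1 and Airn are made from the paternal copy of their regions and silence neighbouring genes in cis. Snhg11 is a host gene of small nucleolar RNAs that is best known from neurons.

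CO mouse 1 had the fewest counts, 229766 in total, and FO mouse 2 the most, 1124963. Rn45s, the precursor of ribosomal RNA, took between 21.8% and 87.0% of them, so all shares below are percentages of the counts outside Rn45s. These numbered 45177 in CO mouse 1 and 473254 in FO mouse 2, with a median of 185996. A floor of 3 counts per mouse was 0.00664% of these in CO mouse 1 and 0.000634% in FO mouse 2. Intervals given with shares are 95% exact Clopper-Pearson intervals, and like the floor they cover counting error only.

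Markers of lung were present in every mouse. All 14 lung epithelial and endothelial markers had counts, and their summed share was 1.32% ± 0.0956 for FO mice against 1.32% ± 0.155 for CO mice (SD, n = 5 each). The highest mean share over the 10 mice was that of Scgb1a1, the secretory protein of club cells, followed by Sftpc, the surfactant protein of alveolar type 2 cells. Of the 12 lung markers tested, 1, the lymphatic endothelial gene Lyve1, had an unadjusted p under 0.05 (2.91% of all genes did), at 0.62 on the log2 scale, FO over CO (SE, the standard error, 0.29, adjusted p from edgeR = 0.998). In a fit of all genes with any count Lyve1 was not called, and a different 1 of the 14 was called lower in the FO group, where 4.15% of all genes were called. Of 8 neuronal markers, Stmn2 held 351 of the counts, whereas Snap25 had 1 count over all mice and Elavl4 was listed at 0.

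Of the 8 members, 6 had counts, and Rian and Mirg were listed at 0 in all 10. The members had 62464 counts together, and 99.5% of these fell on Malat1, from 89.7% in CO mouse 1 to 99.7% in CO mouse 5. Only Malat1 and Neat1 passed edgeR's filter on low counts, which left 2438 genes. Neither of these 2 was called between the diets at an unadjusted p under 0.05, where 71 genes, or 2.91% of those tested, were called. Among these 71 genes 41 were higher and 30 lower in the FO group. This balance turned without FO mouse 2 (46 higher, 110 lower). It also turned with library size alone (1 higher, 32 lower), where the median log2 fold change of all genes was -0.48. After Benjamini-Hochberg adjustment edgeR called 0 of the 2438 genes, and DESeq2 on the same genes called 62 before and 1 after adjustment.

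Malat1 lies on chromosome 19 from 5795690 to 5802672 on the minus strand (GRCm38, the build that mm10 names) and is annotated as a single exon of 6983 bases. In FO mice 1 to 5 it made up 0.928%, 8.53%, 0.176%, 0.262% and 0.322% of the counts outside Rn45s. In CO mice 1 to 5 it made up 0.135%, 0.293%, 1.05%, 0.374% and 6.15%. FO mouse 2 and CO mouse 5 were therefore high, each in a different diet group, FO mouse 1 and CO mouse 3 came next, and the groups overlapped over almost their whole range. Rn45s took 57.9% of all counts in FO mouse 2, the lowest of its group, and 51.7% in CO mouse 5, but the lowest of all, 21.8%, in CO mouse 4, which was not high in Malat1.

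The highest Malat1 share was 63.2 times the lowest. The counting interval was 8.45% to 8.61% in FO mouse 2 and 0.103% to 0.173% in CO mouse 1. In FO mouse 2 and CO mouse 5 Malat1 had more counts than any other gene outside Rn45s. It ranked 3 in CO mouse 3 and 4 in FO mouse 1, and elsewhere its rank lay between 15 in CO mouse 4 and 78 in CO mouse 1.

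**Figure D1:**
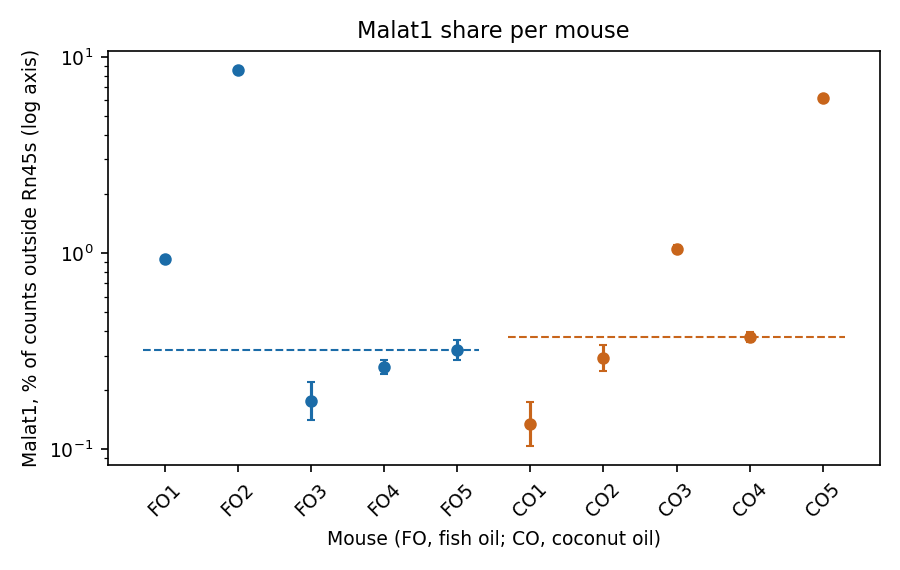
Malat1 share of the counts outside Rn45s in each mouse, in percent on a log axis, with FO mice in blue and CO mice in orange. Points are single mice, bars are 95% exact Clopper-Pearson intervals and dashed lines are group medians; FO mouse 2 at 8.53% and CO mouse 5 at 6.15% lie above all other mice.

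The mean Malat1 share was 2.04% ± 3.64 for FO mice against 1.60% ± 2.57 for CO mice (SD, n = 5 each), and the SD exceeded the mean in each. The difference of 0.444 percentage points was smaller than either SD. An exact permutation test of the diet labels gave p = 0.794 (two-sided, where 0.0079 is the smallest p that 5 mice against 5 allow). The medians had the opposite order, 0.322% for FO mice against 0.374% for CO mice. In the edgeR fit the log2 fold change was 0.45 (SE 1.05, 95% interval -1.75 to 2.65, adjusted p from edgeR = 0.998).

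The direction of the Malat1 estimate rested on single mice. Without FO mouse 2 the log2 fold change was -2.10 (edgeR unadjusted p = 0.0189, adjusted p = 0.644), and without CO mouse 5 it was 2.38 (unadjusted p = 0.0257, adjusted p = 0.999). With both left out it was -0.16 and no longer past the unadjusted threshold. These are the 2 mice of highest Malat1 share, so leaving them out together depends on the values tested. Each of the 2 single omissions thus gave an unadjusted call, in opposite directions, and neither passed adjustment.

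Neat1 lies on the same strand of chromosome 19, from 5824708 to 5845478, with 22035 bases between it and Malat1. It had 18, 99, 1, 17 and 12 counts in FO mice 1 to 5, which were 0.00719%, 0.0209%, 0.00215%, 0.00721% and 0.0131% of the counts outside Rn45s. The CO mice 1 to 5 had 5, 5, 14, 18 and 34 counts, or 0.0111%, 0.00899%, 0.0103%, 0.00641% and 0.0133%. FO mouse 2 was the highest and FO mouse 3, with a single count, the lowest, and all CO mice lay between these 2.

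Neat1 therefore varied 9.72 times between its highest and lowest mouse, where the lowest rests on 1 count. Its log2 fold change was 0.25 (SE 0.43, 95% interval -0.65 to 1.15, adjusted p from edgeR = 0.998). The mean log2 CPM, with a prior count of 2, had the opposite order, 4.74 ± 1.12 for FO mice against 4.94 ± 0.41 for CO mice (SD, n = 5 each, two-sided exact permutation p = 0.714). Scaling by library size alone also turned the sign, to -0.07, in a fit where the median of all genes moved to -0.48.

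Levels of different members were compared per length, as counts per kilobase of annotated exon per 1000000 counts outside Rn45s. On this scale the median level over the 10 mice was 498.1 for Malat1, 4.64 for Neat1, 1.68 for Snhg11 and 0.110 for Kcnq1ot1, and 0 for Meg3, Airn, Rian and Mirg. The lowest Malat1 level, 193.4, was above the highest Neat1 level, 10.1. The ranges of Neat1 (1.04 to 10.1) and Snhg11 (0 to 2.75) overlapped, but within each of the 10 mice Neat1 was the higher of the 2. Snhg11 was above Kcnq1ot1 (0 to 0.588) in 7 mice, below it in 2 and equal to it, at 0, in 1. The Kcnq1ot1 length is that of its whole unspliced transcript of 93092 bases, and the Neat1 length is that of its long form, 20771 bases.

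The ratio of Malat1 to Neat1 per length was not constant. In FO mice 1 to 5 it was 384.0, 1213, 243.9, 108.1 and 72.9, and in CO mice 1 to 5 it was 36.3, 97.0, 303.6, 173.3 and 1379. It was highest in CO mouse 5 and FO mouse 2, so Malat1 stood higher in these mice by a larger factor than its neighbour did.

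The 3′ ends of both RNAs are shown because the labels name library kits with poly(A) selection (TruSeq RNA v2) or with depletion of ribosomal RNA (riboZero), and the sources used here do not give the kit of each mouse. The sequences are the transcribed strand, read 5′ to 3′ from the GENCODE M21 transcripts. Capitals mark a U-rich motif, TTTTGCTTTT, and an A-rich tract, AAAAAGCAAAA, written with T for U. The Malat1 stretch is chr19:5795982-5796081 on the minus strand, bases 6592 to 6691 of the transcript, and the Neat1 stretch is chr19:5824708-5824807 on the minus strand, bases 20672 to 20771, where its annotation ends.
Malat1: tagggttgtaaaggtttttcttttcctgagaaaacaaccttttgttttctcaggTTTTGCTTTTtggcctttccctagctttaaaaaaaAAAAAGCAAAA
Neat1: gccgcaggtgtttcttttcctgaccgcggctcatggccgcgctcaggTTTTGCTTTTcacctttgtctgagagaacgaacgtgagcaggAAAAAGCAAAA

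In Malat1 the annotated transcript runs on past this tract. The next 61 bases, chr19:5795921-5795981 on the minus strand, are shown because this is where the small transfer RNA-like product begins.
Malat1 after the tract: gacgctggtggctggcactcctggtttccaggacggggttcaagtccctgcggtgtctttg

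The U-rich motif followed by the A-rich tract within 100 bases, searched on the transcribed strand alone, was found in 2 of 18930 GENCODE long noncoding transcripts, or 0.0106%, and these were Malat1 and Neat1. The A-rich tract by itself was found in 77 transcripts (0.407%). Both motifs were taken from what is known of these 2 RNAs, so the match is a description. The search covered 7 of the 8 members, because GENCODE lists Snhg11 as protein coding, while RefSeq lists it as a long noncoding RNA. The part of the library kit in the Malat1 spread was not tested.

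Meg3, a maternally expressed RNA, lies on chromosome 12 from 109541001 to 109571726 on the plus strand. It had 6 counts in FO mouse 2, 1 count in CO mouse 3 and 0 in every other mouse. From the 6 counts of FO mice and the 1 count of CO mice, the ratio of the group shares was 4.23, with a counting interval of 0.514 to 194.7. The fitted log2 fold change among genes with any count was 1.44 (SE 1.18, adjusted p from edgeR = 0.905) and depends on the prior count. A single mouse thus held 6 of 7 counts.

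Rian and Mirg, which follow Meg3 on the same strand (109603940 to 109661716 and 109729764 to 109749460), had 0 counts in all mice. In FO mouse 2, the deepest, a count of 0 allows a share of up to 0.000634% (3 of its counts outside Rn45s, a one-sided limit). Rian overlaps 13 small nucleolar RNA and 4 microRNA genes in the annotation, and Mirg overlaps 15 microRNA genes. Of the overlapping genes that the count table lists, 7 for Rian and 13 for Mirg, all were at 0 except DQ267102, which had 1 count. The protein-coding gene Dlk1 of this region was also listed at 0. A listed 0 need not mean absence, as the hemoglobin genes were listed at 0 in all mice while the erythroid gene Alas2 had 244 counts.

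Of the 10 genes on the list for the Meg3 region, 4 were tested and 0 were called (2.91% of all genes were), with a median log2 fold change of -0.04, where the median over all genes tested was 0.0041. The most abundant was Dync1h1, the heavy chain of cytoplasmic dynein, with a log2 fold change of -0.10 (SE 0.31).

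Kcnq1ot1 lies on chromosome 7 from 143203458 to 143296549 on the minus strand, inside Kcnq1, a potassium channel gene read from the plus strand. Its counts were 3, 22, 0, 2 and 5 in FO mice 1 to 5, and 2, 0, 1, 2 and 7 in CO mice 1 to 5. FO mouse 2 and CO mouse 5 had the most counts, but as a share FO mouse 5 was highest at 0.00547%, followed by FO mouse 2 at 0.00465% and CO mouse 1 at 0.00443%, and the groups overlapped.

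Because Kcnq1ot1 did not pass the filter, it was taken from a fit over all 14161 genes that had counts. Its log2 fold change there was 0.81 (SE 0.66, 95% interval -0.48 to 2.11, adjusted p from edgeR = 0.905). This value was 0.11 without FO mouse 2 and 1.49 without CO mouse 5. In that fit 0 of the 6 members with counts were called at an unadjusted p under 0.05, against 587 genes or 4.15%. DESeq2 called far fewer there, 138 of 14155 genes. After adjustment 1 gene was called, S100a9, which is not a member and was named after its value was seen. The strand setting of the counting is not given in the sources used here, and Kcnq1 itself had 38 counts, so reads of the 2 genes cannot be told apart where they overlap.

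Among 16 genes of the Kcnq1ot1 region 11 had counts, 3 were tested after the filter and 0 were called in either fit, where 2.91% and 4.15% of all genes were, so that none is what so few genes would give. The median log2 fold change of the 3 was 0.0053. Cdkn1c, an inhibitor of the cell cycle that Kcnq1ot1 is known to silence, had 66 counts over all mice, Phlda2 and Ascl2 were listed at 0, and the histone chaperone gene Nap1l4 was the most abundant, with a log2 fold change of 0.01 (SE 0.28).

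Airn lies on chromosome 17 from 12741311 to 12860136 on the plus strand and overlaps Igf2r and Mas1, both on the minus strand. It had 1 count in each of FO mouse 2, FO mouse 5 and CO mouse 5. With 2 counts in FO mice and 1 in CO mice, both under the floor of 3 taken over the group, no fold change is given. Igf2r, the imprinted gene that Airn silences on the paternal copy, had 98 counts over all mice.

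Of 12 genes in the Airn region 2 were tested after the filter and 0 called (2.91% of all genes were), with a median log2 fold change of -0.07. The most abundant was Qk, an RNA-binding protein of splicing, with a log2 fold change of -0.11 (SE 0.23). Of the 8 region genes below the filter 1 was called, where 4.5% of all genes below the filter were. This was Plg, on 3 counts, all in CO mouse 4, so both groups were at or under the floor and no difference is read from it.

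Snhg11 lies on chromosome 2 from 158375638 to 158386145 on the plus strand and overlaps 2 small nucleolar RNA genes. It had 4, 8, 0, 3 and 1 counts in FO mice 1 to 5 and 0, 1, 3, 0 and 6 counts in CO mice 1 to 5. Mice of both groups were at 0, and no mouse was above 0.00234%, so the groups overlapped. The log2 fold change in the fit of genes with any count was 0.09 (SE 0.75, 95% interval -1.38 to 1.56, adjusted p from edgeR = 0.995). Its sign turned in 5 of 16 alternatives, as to -0.38 without CO mouse 4.

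**Figure D2:**
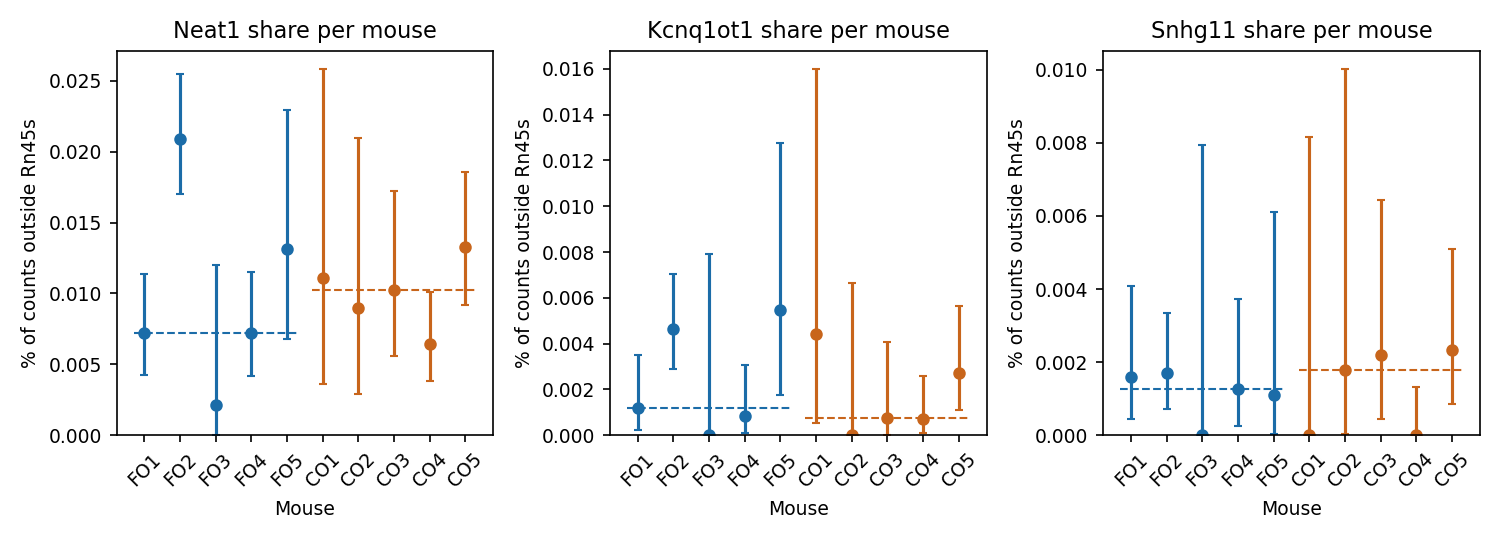
Shares of Neat1, Kcnq1ot1 and Snhg11 in each mouse, as percent of the counts outside Rn45s, with FO mice in blue and CO mice in orange. Points are single mice, bars are 95% exact Clopper-Pearson intervals and dashed lines are group medians; the intervals of most mice overlap between the diets.

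All members other than Malat1 together had 303 counts. Their summed share was 0.0142% ± 0.0105 for FO mice against 0.0132% ± 0.00445 for CO mice (SD, n = 5 each), and this difference was smaller than either SD. An exact permutation test of the diet labels gave p = 0.857 (two-sided). The medians had the opposite order, 0.00998% for FO mice against 0.0139% for CO mice, and 6 of 16 alternatives turned the sign of the difference. The highest mouse was FO mouse 2 at 0.0287% and the lowest FO mouse 3 at 0.00215%, so the FO group enclosed the CO group.

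**Figure D3:**
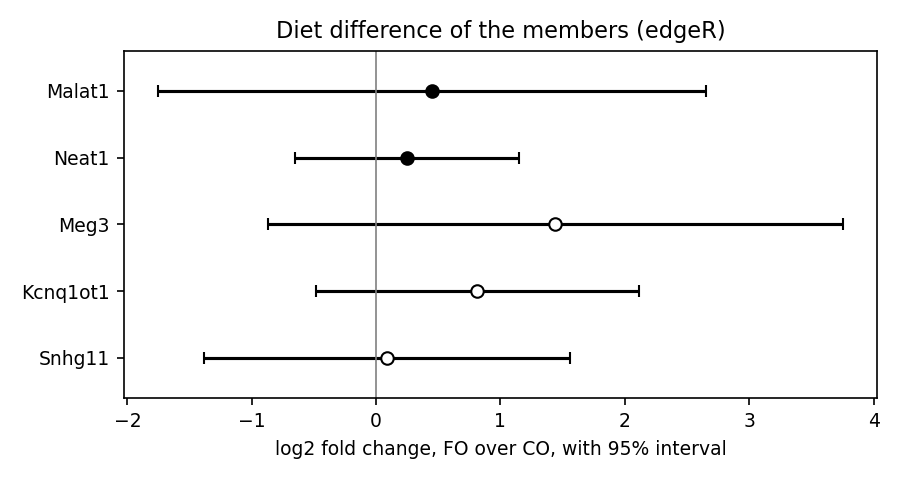
Log2 fold changes of FO over CO for the 5 members with more than 3 counts in at least 1 group, with 95% intervals from edgeR. Filled points are from the fit after the filter on low counts and open points from the fit of all genes with any count; all 5 intervals include 0, and Malat1 turns to -2.10 without FO mouse 2 and rises to 2.38 without CO mouse 5, and scaling by library size alone moves Neat1 to -0.07 and Snhg11 to -0.20, where the medians of all genes, -0.48 and -0.43, lie lower still.

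Proteins of the nuclear bodies that Malat1 and Neat1 belong to were read from 2 lists. Of 40 nuclear speckle genes all had counts, 27 were tested after the filter and 0 were called (2.91% of all genes were), with a median log2 fold change of -0.05. Below the filter 1 of 13 was called (4.5% of all genes there), the splicing regulator Tra2a, with a log2 fold change of 1.17 (SE 0.45, adjusted p from edgeR = 0.905). Of 38 paraspeckle genes 13 were tested and 0 called, where 2.91% of all genes were, with a median of 0.08, and 0 of the 21 below the filter were called, where 4.5% were.

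The summed share of the nuclear speckle genes in FO mice 1 to 5 was 0.941%, 1.20%, 0.742%, 0.852% and 0.777%. In CO mice 1 to 5 it was 0.823%, 0.832%, 0.970%, 0.877% and 1.21%. CO mouse 5 and FO mouse 2 were the highest here too, although by a far smaller factor than for Malat1, and the groups overlapped. The summed paraspeckle share was likewise the highest of each group in these mice, at 0.570% in FO mouse 2 and 0.625% in CO mouse 5, as was that of the genes near Malat1 and Neat1, at 0.0651% and 0.0737%. The most abundant nuclear speckle gene was Rbm25, a splicing factor, with a log2 fold change of -0.09 (SE 0.37). The most abundant paraspeckle gene was Sfpq, which binds Neat1, with a log2 fold change of -0.37 (SE 0.37).

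Genes near Malat1 and Neat1 on chromosome 19 gave too few tests to compare them as a group. Of 18 on the list 16 had counts. The 1 tested after the filter was not called, where 2.91% of all genes were. Of the 15 below it 0 were called, where 4.5% of all genes were. The tested gene was Rela, a subunit of NF-κB, with a log2 fold change of -0.32 (SE 0.29, adjusted p from edgeR = 0.998).

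Factors of nuclear RNA decay and processing had 5 tested genes and 0 calls, with a median log2 fold change of -0.08, and 0 calls among 9 below the filter, too few genes to expect a call at 2.91% and 4.5%. Pabpn1, the nuclear poly(A)-binding protein, was the most abundant, with a log2 fold change of 0.33 (SE 0.24). The summed share of these factors was the highest of its group in FO mouse 2 (0.166%), but not in CO mouse 5 (0.128%, against 0.153% in CO mouse 3).

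Other long noncoding RNAs varied in different ways. Of 35 that the counts list, 24 had counts, and their summed share in FO mouse 2 (0.123%) and CO mouse 5 (0.141%) was the lowest of each group. The most abundant was Gas5, a host of small nucleolar RNAs, at 0.0484% in FO mouse 2 and 0.0601% in CO mouse 5, also the lowest of each group. Of the 3 tested after the filter 0 were called (2.91% of all genes were). Of 21 below it 1 was (4.5% of all genes there), Dnm3os, with 5 counts in FO mice and 0 in CO mice. The sum does not stand for each gene, as Firre, a nuclear RNA of the X chromosome named after its values were seen, had 12 of its 18 counts in FO mouse 2 and 4 in CO mouse 5.

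A wider set of 1711 genes that RefSeq calls long noncoding, without Malat1, was put together after the values were seen. Its most abundant gene was 2900060B14Rik, on chromosome 1 from 118458652 to 118459267, with 39405 counts. It made up 0.760%, 4.63%, 0.136%, 0.448% and 0.103% in FO mice 1 to 5 and 0.153%, 0.974%, 2.57%, 0.0798% and 3.92% in CO mice 1 to 5. FO mouse 2 and CO mouse 5 were again the highest, with CO mouse 3 next. Its log2 fold change was -0.22 (SE 0.97, adjusted p from edgeR = 0.998).

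Small nucleolar RNA genes, of which 32 of 119 had counts, summed to 2.35% in FO mouse 2 and 1.36% in CO mouse 5, followed by 1.16% in CO mouse 3. The most abundant was Snora81, which guides pseudouridylation and lies on chromosome 16 from 23110756 to 23110933, inside the gene Eif4a2. Its share in FO mice 1 to 5 was 0.229%, 2.09%, 0.0108%, 0.0984% and 0.0208%, and in CO mice 1 to 5 it was 0.00885%, 0.0827%, 0.471%, 0.136% and 1.14%. FO mouse 2 and CO mouse 5 were the highest, as for Malat1. Snora23, the other 1 tested after the filter, was highest elsewhere, at 0.664% in CO mouse 3, 0.381% in CO mouse 2 and 0.309% in FO mouse 4, against 0.213% in FO mouse 2 and 0.206% in CO mouse 5. Of the 2 such genes tested after the filter 0 were called, where 2.91% of all genes were, and of 30 below it 3 were, where 4.5% of all genes were. Snora30 was higher (95% interval of the log2 fold change 0.71 to 2.29, adjusted p from edgeR = 0.401), with its highest share in FO mouse 2 (0.0294%). Its shares in FO mouse 1 (0.0024%) and FO mouse 5 (0.0044%) lay below those in CO mouse 2 (0.0126%) and CO mouse 3 (0.0081%). Snora68 had counts in FO mouse 2 alone and Snord22 was lower, with 13 counts in all.

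Structural noncoding RNAs were few, with counts on 3 of 9, of which Rmrp, the RNA of a nuclear ribonuclease, was called from 4 counts, all in the FO group, where 4.5% of all genes below the filter were called. Of 17 histone cluster genes with counts, which are mostly made without a poly(A) tail, 3 were tested after the filter and 1 was called (2.91% of all genes there), the linker histone gene Hist1h1e (log2 fold change 0.92, SE 0.32, edgeR adjusted p = 0.998). Below the filter 2 of 14 were called, where 4.5% of all genes were. These were Hist2h2bb, higher on 7 counts, and Hist1h4h, on 3 counts, from which no difference is read. The summed histone share was 0.0484% in FO mouse 2 and 0.0269% in CO mouse 5, inside the range of the FO group and the lowest of the CO group.

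The genes most like Malat1 were found as those with the smallest root mean square difference of median-centred log2 CPM over the 10 mice, among the genes that passed the filter. They were Eps8l1, an actin regulator (1.21), Nes, which encodes the intermediate filament nestin (1.27), Snora81 (1.29), Nckap5 (1.34) and Pnisr, a splicing-related nuclear protein (1.35), where the median over all other genes was 2.28. Through this choice they share the high values of FO mouse 2 and CO mouse 5, as Pnisr at 0.0803% and 0.0893% and Nes at 0.0771% and 0.0835%. The genes most like Neat1 were Svil, a membrane-bound actin-binding protein (0.34), Sfswap, a splicing regulator (0.41), Herc2, a ubiquitin ligase (0.41), Ctla2a, a protease inhibitor (0.42) and Tmf1, a Golgi protein (0.42), where the median over all other genes was 0.88. In FO mouse 3, the lowest for Neat1, Svil and Sfswap had the same share as Neat1, 0.00215% or 1 count. Their likeness there thus rests on single counts.

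Lung markers and markers of other tissues were also read in the mice of high Malat1 share. The lung markers summed to 1.36% in FO mouse 2 and 1.21% in CO mouse 5, inside the range of each group. Single markers went different ways. Sftpc was the highest of each group there, at 0.462% in FO mouse 2 and 0.434% in CO mouse 5, and Scgb1a1 the lowest of each group, at 0.231% and 0.200%. The surfactant genes Sftpa1, at 0.301% and 0.236%, and Sftpd were likewise the highest of each group in these mice, while Sftpb was the highest of neither. Scgb3a2 was, like Scgb1a1, the lowest of each group. The 8 heart muscle markers, led by Myh6, summed to 0.0600% in FO mouse 2 and 0.0445% in CO mouse 5, the highest of each group. Myh6 held 167 of the 284 counts of this sum in FO mouse 2, and its members differed. In FO mouse 2 Tnni3 (0.00359%) was the lowest of its group and Tnnt2 was not the highest. In CO mouse 5 Tnnt2 (0.00702%) was the highest of its group and Tnni3 was not. Of the 7 below the filter, where 4.5% of all genes were called, 2 were called higher in the FO group, Tnnt2 (log2 fold change 1.24, SE 0.45) and Tnni3 (1.39, SE 0.56), with an edgeR adjusted p of 0.905 each. The neuronal markers summed to 0.0203% and 0.0191% in the same mice, inside the range of the others, and 1 of 6 below the filter was called (4.5% of all genes there), Tubb3, on 5 counts. The 8 mesenchymal markers, led by Mgp, summed to 0.489% in FO mouse 2 and 0.424% in CO mouse 5, the lowest of each group. Of the 7 tested after the filter 0 were called (2.91% of all genes were), nor was the 1 below it (4.5% of all genes there). Of the 8 blood markers 2 had counts. Alas2, the only 1 tested after the filter, was not called there, where 2.91% of all genes were. In the fit of genes with any count Alas2 had an unadjusted p under 0.05, as 4.15% of all genes did (log2 fold change 0.99, SE 0.36, adjusted p from edgeR = 0.905). The part of these cell types in the Malat1 values was not tested.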

How the data were processed

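Lung RNA of 5 FO and 5 CO mice was sequenced, and the groups were taken from the sample titles. The values the authors deposited are unnormalized read counts for each gene symbol. The submitters' processing notes name STAR 2.4.0f1, SAMtools 0.1.19, HTSeq and the build mm10. The annotation and strand setting of the counting are not given in the sources used here. No columns were identical and all were used.

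The quasi-likelihood test of edgeR 4.0.16 (R 4.3.3) was used after TMM scaling and its default filter, which asks for 10 counts and a total of 15. The threshold was an unadjusted p under 0.05, with Benjamini-Hochberg adjustment over all genes tested. Members below the filter were read from a fit of all genes with any count. No fold change is given where both groups had 3 counts or fewer over the mice used, although such genes are among those tested without the filter. They made up 59 of the 528 calls below it, and of the other genes below the filter 5.27% were called. Shares were compared with two-sided exact permutation tests over the 252 assignments of mice (Python 3.11.15, scipy 1.17.1). The edgeR test was also run on simulated counts with the same dispersion for every gene. That setting does not cover a spread between mice as wide as that of Malat1. Positions and exon lengths are from GENCODE M21 and gene types also from RefSeq, both on GRCm38, and 22549 symbols matched RefSeq.

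The members and lists were chosen with earlier results of these data known. The genes named are the members, in each list the 3 of highest mean share and at most 4 with the smallest unadjusted p under 0.05, the 5 most like Malat1 and Neat1, and overlapping genes; of these, the ones that carry a comparison are printed. Alternatives were RLE scaling factors, library size alone, DESeq2 1.42.0, other filters, robust estimation, leaving out Rn45s, the replicate number as a block, leaving out mice, and other denominators and summaries of the shares. Leaving out Malat1 with Rn45s was chosen after seeing the data. Leaving out FO mouse 2 and CO mouse 5 together removes the 2 mice of highest Malat1 share, so it depends on the Malat1 values.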

Additional observations from a re-analysis of the deposited data

Results flagged for a closer look

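In 49 groups of 5 mice, formed by library totals, member shares and list shares in the mice of 1 diet, the extreme mouse was compared with the rest by Dixon's ratio, its gap to the nearest mouse over the group's range. The ratio was above 0.71 in 7 of them. Meg3 in the CO group and Airn in either group, all at or under the floor of 3 counts, are not among these 7. Without Malat1, chosen for its spread, the RefSeq list, put together after the values were seen, and Meg3 in the FO group, the ratio was above in 3 of 44, and chance gives about 1 in 20. Malat1 stood apart in FO mouse 2 at 8.53% of the counts outside Rn45s and in CO mouse 5 at 6.15%, the spread for which it was chosen. Meg3 was at 0.00127% in FO mouse 2, on 6 counts, and at 0 in the other FO mice, where any count gives the highest ratio. In FO mouse 2 the small nucleolar RNA genes were at 2.35%, of which 2.09 came from Snora81, and the RefSeq long noncoding genes other than Malat1 at 4.94%, of which 4.63 came from 2900060B14Rik. The genes of the Kcnq1ot1 region were lowest in CO mouse 2 at 0.0431%, and those of the Airn region highest in CO mouse 4 at 0.145%. The cause of these values was not tested.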

How the results depend on the processing

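The count of 71 called genes was 33 with library size alone, 587 among genes with any count, 15 where every mouse had to have 10 counts or more and 107 without Rn45s, and it ranged from 54 to 156 with each mouse left out, the highest without FO mouse 2, where 46 were higher and 110 lower in the FO group. With library size alone 1 call was higher and 32 lower, and the median of all genes was -0.48. With each mouse left out, log2 fold changes ranged from -2.10 to 2.38 for Malat1, 0.05 to 0.40 for Neat1, 1.02 to 3.05 for Meg3, 0.11 to 1.49 for Kcnq1ot1 and -0.38 to 0.77 for Snhg11, and the differences in share from -1.18 to 1.58 percentage points for Malat1 and from -0.00265 to 0.00400 for the other members. The highest Meg3 value, without CO mouse 3, passed the unadjusted threshold (edgeR adjusted p = 0.904) against a CO group at 0, so it depends on the prior count. Without FO mouse 2, alone or with CO mouse 5, Meg3 had 0 counts in FO mice and 1 in CO mice and got no value, and Airn got none in any setting. Neat1 could not be tested without FO mouse 2, without CO mouse 5, without both, or where every mouse had to have 10, since it did not pass those filters. Without FO mouse 2 and CO mouse 5 together Malat1 was -0.16, and the differences in share were -0.0406 for Malat1 and -0.00127 for the others. Library size alone gave -0.073 for Neat1 and -0.20 for Snhg11, both above the medians of all genes in those fits (-0.48 and -0.43), and DESeq2 gave -0.028 for Snhg11. DESeq2 gave no p for Malat1. The difference of group medians was -0.0518 for the Malat1 share and -0.00397 for that of the others, whose mean log2 share differed by -0.28. With the replicate number as a block, Malat1 was -0.16, Neat1 -0.0061, Meg3 0.65, Kcnq1ot1 0.52 and Snhg11 0.29, and 55 genes were called. The paired differences in share were 0.444 (p = 0.875) and 0.000986 (p = 0.812) by an exact test that flips the signs of the pairs. It has 32 assignments and a smallest two-sided p of 0.0625, so it could not pass 0.05. Same-numbered mice correlated at -0.12 (range -0.41 to 0.03 over 5 pairs) and other pairs at 0.03, so the numbers do not pair the mice. All 16 alternatives kept the sign and side of the threshold for Kcnq1ot1. Leaving out Malat1 with Rn45s, chosen after seeing the data, gave 106 calls and 0.23 for Neat1. The cause of these changes was not tested. Members other than Malat1 rested on 303 counts, and the part of depth in their differences was not tested.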
